A study of Arabidopsis thaliana with 8 samples.

Results

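Arabidopsis thaliana carries 6 nuclear genes for the monomeric, or minor, antenna proteins of photosystem II. Their transcripts were measured here in etiolated seedlings that were kept in darkness or given red light for 1 h. The genes were chosen by name from their AGI codes, though with earlier results of these data known. All 6 of them were found among the 27416 gene models of the deposited tables. They are LHCB4.1 (AT5G01530), LHCB4.2 (AT3G08940) and LHCB4.3 (AT2G40100), which encode CP29, LHCB5 (AT4G10340), which encodes CP26, LHCB6 (AT1G15820), which encodes CP24, and LHCB7 (AT1G76570), a more distant relative whose product is scarce. All 6 passed the filter on low counts and were among 20716 genes tested.

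The RNA sequencing libraries fell into 4 groups of 2. These were a phyAB mutant given red light of 50 µmol per square metre and second for 1 h (phyAB red), a phyB mutant given that light (phyB red), the wild-type ecotype Col given that light (WT red), and wild type kept in darkness (WT dark). In each group the seedlings were 4.5 days old and had grown on 1% sucrose at 22 °C in darkness for 4 days, which followed a white-light exposure of 12 h and a germination period of 21 h. The mutant alleles are not named in the sources used here, no dark library of either mutant was analysed here, and nothing states that the 2 libraries of a group came from separate cultures. Significance is thus judged against the spread of these libraries alone, which may be technical, and any effect of a mutation in darkness cannot be told apart from an effect on the light response.

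Minor antenna proteins sit between the photosystem II core and the trimers of the major antenna, LHCII, and pass excitation energy inward. They bind chlorophyll a, chlorophyll b and xanthophylls, and they take part in the dissipation of excess energy. Being nuclear-encoded, they are imported into the plastid and inserted into the thylakoid membrane. Phytochromes are red and far-red photoreceptors; phyA is abundant in dark-grown seedlings and degraded in light, whereas phyB is stable. Both are known to raise the transcripts of antenna genes during greening.

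In the TAIR10.1 annotation the genes lie on all 5 chromosomes. LHCB4.1 spans chr5:208866-210548 on the plus strand, LHCB4.2 chr3:2717557-2718923 on the plus strand, and LHCB4.3 chr2:16745628-16747424 on the plus strand; each has 2 exons. LHCB5 at chr4:6408007-6409849 and LHCB7 at chr1:28728998-28730851 are on the plus strand with 6 exons each. LHCB6 at chr1:5446462-5447880 is on the minus strand with 2 exons. The coding sequences of LHCB4.1 and LHCB4.2 were identical at 81.9% of aligned bases, those of LHCB4.3 and LHCB4.1 at 71.8%, and those of LHCB4.3 and LHCB4.2 at 73.0%. No run of 50 bases was shared between the transcripts of any pair of members, so a read of that length or longer would belong to 1 member.

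The 200 bases before the annotated start are shown for 4 of the genes, the 3 CP29 copies because they responded unequally and LHCB6 because it had the highest fold change in light. They are reference sequence read from RefSeq's TAIR10.1 assembly, 5′ to 3′ on the gene's strand, at chr5:208666-208865 for LHCB4.1, chr3:2717357-2717556 for LHCB4.2, chr2:16745428-16745627 for LHCB4.3 and, on the minus strand, chr1:5447881-5448080 for LHCB6. Capitals mark matches, on either strand, to the G-box CACGTG, the I-box GATAAG, the CCAAT-type motif CCAATC and the TATA motif TATAAA.
LHCB4.1: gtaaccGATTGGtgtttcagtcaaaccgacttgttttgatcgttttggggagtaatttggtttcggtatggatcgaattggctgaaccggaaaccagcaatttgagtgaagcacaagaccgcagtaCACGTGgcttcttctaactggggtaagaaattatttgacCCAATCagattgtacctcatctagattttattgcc
LHCB4.2: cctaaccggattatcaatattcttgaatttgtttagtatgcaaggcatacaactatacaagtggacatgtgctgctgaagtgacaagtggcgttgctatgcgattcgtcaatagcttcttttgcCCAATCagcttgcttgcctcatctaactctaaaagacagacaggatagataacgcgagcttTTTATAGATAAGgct
LHCB4.3: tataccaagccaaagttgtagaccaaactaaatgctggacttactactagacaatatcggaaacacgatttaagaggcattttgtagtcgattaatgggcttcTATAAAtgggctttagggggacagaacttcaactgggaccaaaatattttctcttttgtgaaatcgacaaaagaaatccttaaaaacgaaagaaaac
LHCB6: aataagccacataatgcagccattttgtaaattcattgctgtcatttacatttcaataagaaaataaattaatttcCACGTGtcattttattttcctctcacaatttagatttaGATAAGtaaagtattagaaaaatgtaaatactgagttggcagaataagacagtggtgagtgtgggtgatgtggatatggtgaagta

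The G-box, a core recognised by bZIP and bHLH transcription factors, was present before 3 of the 6 genes: LHCB4.1 (74 to 69 bases before the start), LHCB6 (124 to 119) and LHCB7 (19 to 14). In windows of the same length, 5.64% of 27438 annotated gene starts held it. The I-box stood before LHCB6 (86 to 81) and LHCB4.2 (9 to 4), and 9.97% of all windows held it; in LHCB4.2 it directly followed a TATA match on the reverse strand (15 to 10). CCAATC was found once before LHCB4.2 (76 to 71) and at 2 places before LHCB4.1 (194 to 189 on the reverse strand and 35 to 30), against 8.43% of all windows. The LHCB4.3 window held only a TATA match (97 to 92), which 41.0% of all windows have, and the LHCB5 window held none of the 4 motifs. No window was cut at a neighbouring gene, so some may run into one. The nearest gene without overlap lay 21 bases from LHCB7, 47 from LHCB5, 179 from LHCB6 and 190 from LHCB4.2. These matches describe the letters in the windows and no binding was measured.

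Library depth ran from 15926547 to 22116924 reads, and the 6 genes together took 0.122% and 0.123% of the reads in phyAB red, 0.303% and 0.304% in phyB red, 0.247% and 0.249% in WT red, and 0.0621% and 0.0608% in WT dark. PHYA transcripts stood at 33.0 and 32.9 RPKM (reads scaled to the length of the gene model and the total of the library) in phyAB red, 185 and 185 in phyB red, 118 and 120 in WT red, and 217 and 215 in WT dark. PHYB transcripts stood at 13.5 and 12.9 RPKM in phyAB red, 15.7 and 16.2 in phyB red, 23.5 and 23.3 in WT red, and 20.1 and 20.3 in WT dark. Both libraries of each mutant thus lay below WT red for the mutated gene or genes, with reads still present, and the transcript level does not show whether the protein was lost. Over all genes, 9716 differed between WT red and WT dark, 5722 between phyB red and WT red (2747 higher and 2975 lower) and 9386 between phyAB red and WT red (4659 higher and 4727 lower). With the deposited RPKM in limma-trend the split became 2793 higher and 1984 lower in phyB red and 5265 higher and 3310 lower in phyAB red, both against WT red.

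Markers of other tissues and stages differed between genotypes and, within wild type, between red light and darkness. The 5 seed storage genes of a fixed list summed to 32.1 to 33.2 RPKM in phyAB red, 0.390 to 0.527 in phyB red, 0.586 to 0.650 in WT red and 1.04 to 1.06 in WT dark. The highest of them in phyAB red were the storage globulin genes CRC (15.5 and 15.0 RPKM) and CRA1 (13.2 and 13.7), and only SESA4 in phyB red had 0 reads in both libraries of a group. SESA4 was at 0.0670 and 0 RPKM in phyAB red and at 0.0736 and 0 in WT red. PIL1, a phytochrome-repressed gene, was at 10.6 and 11.3 RPKM in phyAB red, 10.5 and 11.02 in phyB red, 1.43 and 1.85 in WT red, and 16.6 and 16.6 in WT dark. PORA, the protochlorophyllide oxidoreductase gene of etiolated tissue, was at 269 and 269 RPKM in phyAB red, 11.7 and 12.0 in phyB red, 12.4 and 14.4 in WT red, and 93.0 and 97.4 in WT dark. The 3 root beta-glucosidase genes summed to 9194 to 9244 RPKM in phyAB red, 6364 to 6384 in phyB red, 10156 in both WT red libraries and 7788 to 7791 in WT dark. PYK10 held most of that sum, with 8957 and 8898 RPKM in phyAB red and 9865 and 9862 in WT red. BGLU22 kept the order of groups of the sum, and BGLU21 did not. BGLU21 was at 57.6 and 62.1 RPKM in phyAB red and 46.2 and 45.4 in phyB red. In WT red BGLU21 was at 50.2 and 48.6, and in WT dark at 57.6 and 58.0. The guard cell gene MYB60 was at 4.07 to 4.47 RPKM in phyAB red, 7.995 to 8.54 in phyB red, 4.24 to 5.45 in WT red and 6.04 to 6.17 in WT dark. The part of these differences in the results was not tested. In whole seedlings, fewer cells of a type and less RNA per cell cannot be told apart.

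The minor antenna transcripts spanned a wide range of levels. LHCB5 was at 319 and 325 RPKM in phyAB red, 898 and 899 in phyB red, 695 and 679 in WT red, and 121 and 121 in WT dark. LHCB6 was at 267 and 271 RPKM in phyAB red, 648 and 659 in phyB red, 537 and 554 in WT red, and 67.9 and 64.0 in WT dark. For both genes phyB red was highest, then WT red, then phyAB red, then WT dark. LHCB4.1 was at 210.4 and 208 RPKM in phyAB red, 503 and 498 in phyB red, 402 and 413 in WT red, and 139 and 136 in WT dark. LHCB4.2 was at 213 and 219 RPKM in phyAB red, 482 and 478 in phyB red, 430.2 and 430.3 in WT red, and 186 and 183 in WT dark. Both CP29 genes kept the same order of groups, but started from a higher dark level than LHCB5 and LHCB6.

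LHCB4.3 and LHCB7 were far lower. LHCB4.3, the CP29 gene known for a transcript that accumulates in strong light, was at 12.0 and 11.7 RPKM in phyAB red, 13.3 and 14.3 in phyB red, 12.9 and 12.5 in WT red, and 11.3 and 11.1 in WT dark, a narrow band supported by 218 to 355 reads per library. LHCB7 was at 2.97 and 3.19 RPKM in phyAB red, 9.34 and 9.51 in phyB red, 8.83 and 7.55 in WT red, and 1.61 and 1.92 in WT dark. It had 68 and 56 reads in phyAB red, 157 and 222 in phyB red, 184 and 130 in WT red, and 34 and 38 in WT dark, so its fold changes carry the widest errors of the 6. LHCB7 kept the order of the abundant members, from phyB red down to WT dark, but phyB red against WT red was not called. LHCB4.3 had the same order only by small steps within its narrow band. Its differences in phyB red and phyAB red against WT red, and in WT red and phyAB red against WT dark, were not called.

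**Figure D1:**
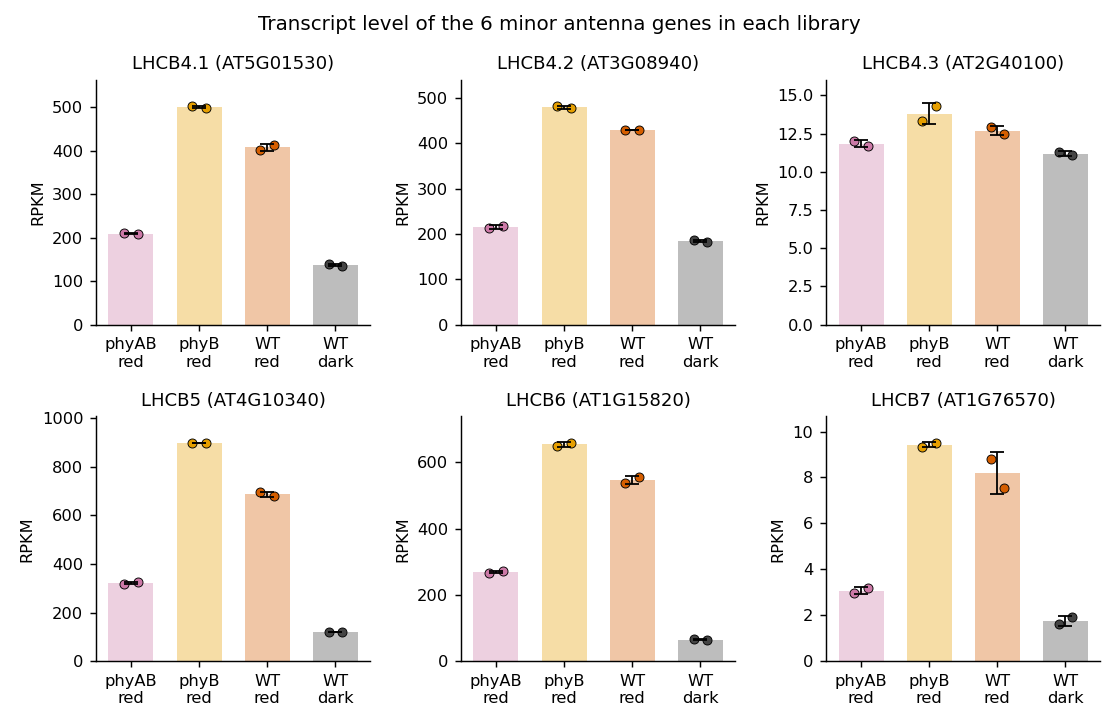
RPKM of the 6 minor antenna genes by group, one panel per gene with its own linear axis from 0; bars are means of 2 libraries, points are libraries and error bars are SD. LHCB5, LHCB6, LHCB4.1 and LHCB4.2 stand highest in phyB red and lowest in WT dark, while LHCB4.3 stays between 11.1 and 14.3 RPKM.

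The order of levels among the genes changed with light. In WT red, LHCB5 (687 ± 11.4) was highest, 1.26-fold above LHCB6 (546 ± 12.0), followed by LHCB4.2 (430.3 ± 0.0233), LHCB4.1 (408 ± 7.55), LHCB4.3 (12.7 ± 0.282) and LHCB7 (8.19 ± 0.904). In WT dark, LHCB4.2 (185 ± 2.52 RPKM; mean and SD, n = 2) was highest, 1.34-fold above LHCB4.1 (138 ± 2.47), followed by LHCB5 (121 ± 0.179), LHCB6 (65.9 ± 2.75), LHCB4.3 (11.2 ± 0.139) and LHCB7 (1.77 ± 0.224). The phyAB red libraries had the WT red order. The phyB red libraries differed from it in 1 place, with LHCB4.1 at 1.04-fold the level of LHCB4.2. That difference in order depends on the length scaling. Of the unscaled reads of LHCB4.1 plus LHCB4.2, LHCB4.2 held 48.7% in phyAB red, 46.9% in phyB red and 49.3% in WT red. In none of the 4 groups did the libraries of neighbouring genes in the order overlap, although the LHCB4.1 and LHCB4.2 means were as close as 1.03-fold in phyAB red.

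Set against all tested genes by RPKM, LHCB5 stood above 98.8% of them in phyAB red, 99.7% in phyB red, 99.5% in WT red and 95.6% in WT dark. LHCB4.3 stood above 52.7% in phyAB red, 57.1% in phyB red, 55.5% in WT red and 53.2% in WT dark. LHCB7 stood above 21.2% in phyAB red, 46.5% in phyB red, 43.6% in WT red and 16.5% in WT dark. The abundant genes were thus high already in darkness, where the lowest of the 4, LHCB6, stood above 90.5% of tested genes and LHCB4.2 above 97.6%.

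Red light raised 5 of the 6 genes in wild type. LHCB6 rose 8.42-fold (log2 3.07 ± 0.03, fitted value and SE), LHCB5 rose 5.77-fold (2.53 ± 0.02), LHCB7 rose 4.75-fold (2.25 ± 0.21), LHCB4.1 rose 3.01-fold (1.59 ± 0.02) and LHCB4.2 rose 2.37-fold (1.25 ± 0.02). The largest adjusted p among them was 7.63e-25, for LHCB7 (edgeR quasi-likelihood F-test; p-values were adjusted by Benjamini-Hochberg over all tested genes and called at 0.05). LHCB4.3 did not pass: its log2 difference was 0.21 ± 0.11 (adjusted p = 0.101 by edgeR), with an interval from -0.0016 to 0.42. The count of 5 higher of 6 members stands beside 24.2% of all tested genes called higher. All 5 called members were at least 2-fold higher, as were 7.06% of tested genes.

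The members' places among all genes show the spread of the response. Only 0.835% of tested genes had a higher log2 value than LHCB6 in WT red against WT dark, 1.51% than LHCB5 and 1.99% than LHCB7. The share was 3.75% for LHCB4.1, 5.55% for LHCB4.2 and 28.9% for LHCB4.3. Among the 3 CP29 genes the fold changes in light thus differed, with 3.01 for LHCB4.1, 2.37 for LHCB4.2 and, not called, 1.16 for LHCB4.3.

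In phyB red, 4 of the 6 genes were higher than in WT red, by small amounts. LHCB5 was 1.27-fold higher (log2 0.34 ± 0.01), LHCB4.1 1.19-fold (0.25 ± 0.02), LHCB6 1.16-fold (0.22 ± 0.02) and LHCB4.2 1.08-fold (0.11 ± 0.02). The largest adjusted p of the 4 was 1.70e-08 (edgeR), and 13.3% of tested genes were called higher in this comparison. For LHCB7 the log2 difference was 0.16 ± 0.14 (adjusted p = 0.453 by edgeR, interval -0.12 to 0.43) and for LHCB4.3 it was 0.08 ± 0.10 (adjusted p = 0.618 by edgeR, interval -0.12 to 0.29). Against a change of 1.5-fold rather than 0, a test chosen after seeing the data, each of these 4 genes had an adjusted p of 1 in edgeR's glmTreat, which called 385 of all tested genes.

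In phyAB red, 5 of the 6 genes were lower than in WT red, and LHCB4.3 was not called. LHCB7 fell by 1.48 ± 0.18 on the log2 scale (2.80-fold lower), LHCB5 by 1.16 ± 0.02 (2.23-fold), LHCB6 by 1.08 ± 0.02 (2.12-fold), LHCB4.2 by 1.06 ± 0.02 (2.09-fold) and LHCB4.1 by 1.02 ± 0.02 (2.03-fold). The largest adjusted p among them was 3.55e-15 (edgeR), and 22.8% of tested genes were called lower. LHCB4.3 had a log2 difference of -0.16 ± 0.11 (adjusted p = 0.215 by edgeR, interval -0.37 to 0.05). All 5 called genes were at least 2-fold lower, as were 2.94% of tested genes, but LHCB4.1 and LHCB4.2 lay close to that limit: with the deposited RPKM in limma-trend their log2 differences were -0.96 and -0.995. The 4 abundant members fell by between 2.03-fold and 2.23-fold, whereas their rises in wild type ranged from 2.37-fold to 8.42-fold. Seed storage transcripts were at 32.1 to 33.2 RPKM in phyAB red, against 0.586 to 0.650 in WT red, and their part in the result was not tested.

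**Figure D2:**
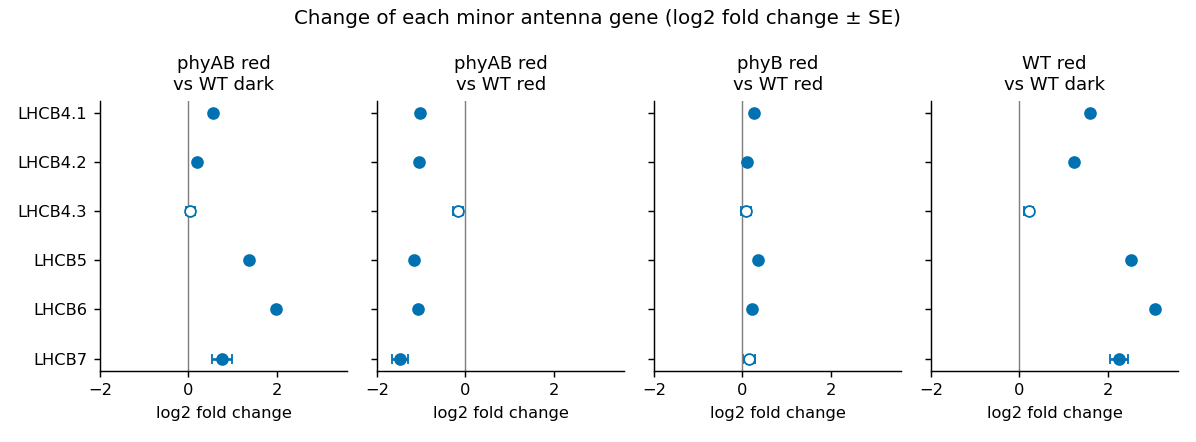
Log2 fold change of each minor antenna gene with its SE in 4 comparisons, from left to right phyAB red against WT dark, phyAB red against WT red, phyB red against WT red and WT red against WT dark; filled points passed the test and open points did not. LHCB4.3 is open in all 4 panels. Its calls in phyAB red against phyB red and in phyB red against WT dark are not shown here.

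The 2 mutants were also set against each other. In phyAB red all 6 genes were lower than in phyB red, by 3.11-fold for LHCB7 (log2 -1.64 ± 0.17), 2.83-fold for LHCB5, 2.46-fold for LHCB6, 2.42-fold for LHCB4.1 and 2.26-fold for LHCB4.2, while 24.2% of tested genes were called lower. LHCB4.3 was 1.19-fold lower (log2 -0.25 ± 0.10, adjusted p = 0.0394 by edgeR). That call was lost in the DESeq2 Wald test (adjusted p = 0.128), without phyAB red replicate 1 (0.104), without phyAB red replicate 2 (0.131) and without phyB red replicate 2 (0.266); over all its alternatives the adjusted p ran from 0.0293 to 1.

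Compared with WT dark, all 6 genes were higher in phyB red and 5 were higher in phyAB red. In phyB red the fold changes were 9.80 for LHCB6, 7.33 for LHCB5, 5.29 for LHCB7, 3.59 for LHCB4.1 and 2.57 for LHCB4.2, and 27.5% of tested genes were called higher. LHCB4.3 was 1.23-fold higher in phyB red (log2 0.29 ± 0.11, adjusted p = 0.0125 by edgeR), a call lost in the DESeq2 Wald test (0.0751), without phyB red replicate 2 (0.149), without WT dark replicate 1 (0.0657) and without WT dark replicate 2 (0.0899); over all its alternatives the adjusted p ran from 0.00531 to 1. In phyAB red the fold changes were 3.98 for LHCB6, 2.59 for LHCB5, 1.70 for LHCB7, 1.48 for LHCB4.1 and 1.14 for LHCB4.2, and 27.4% of tested genes were called higher. The LHCB7 call (log2 0.76 ± 0.23, adjusted p = 0.00262 by edgeR) was lost without WT dark replicate 1 (log2 0.60, adjusted p = 0.0725; range over all its alternatives 0.000828 to 0.616), and against 1.5-fold in glmTreat only LHCB5 and LHCB6 of the 6 were called. LHCB4.3 was not called in phyAB red (log2 0.05 ± 0.11, adjusted p = 0.756 by edgeR), and without WT dark replicate 2 the sign of this small difference turned (-0.0046). Seed storage transcripts stood at 32.1 to 33.2 RPKM in phyAB red, against 1.04 to 1.06 in WT dark, and their part in the result was not tested.

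For the 5 raised genes, the rise over WT dark was also expressed as a percent of the wild-type rise, on the RPKM scale. In phyAB red the share was 42.4% for LHCB6, 35.5% for LHCB5, 26.5% for LHCB4.1, 20.5% for LHCB7 and 12.7% for LHCB4.2. In phyB red it was 122% for LHCB6, 137% for LHCB5, 134% for LHCB4.1, 119% for LHCB7 and 120.3% for LHCB4.2. These shares use WT dark in both terms and WT red in the divisor, and are descriptions with no test. Among all 1463 genes raised at least 2-fold in WT red the median share was 42.7% in phyAB red (quartiles 27.6% to 77.3%) and 118% in phyB red (87.0% to 139%).

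The 2 abundant CP29 copies shifted in their balance. LHCB4.2 held 50.3% and 51.2% of the summed LHCB4.1 and LHCB4.2 signal in phyAB red, 49.0% in both phyB red libraries, 51.7% and 51.0% in WT red, and 57.2% and 57.4% in WT dark. The shares are per length, and the means were 50.8 ± 0.658% in phyAB red, 49.0 ± 0.0141% in phyB red, 51.4 ± 0.461% in WT red and 57.3 ± 0.106% in WT dark (SD, n = 2). The 3 red-light groups lay below WT dark without overlap, and phyB red lay below phyAB red and WT red. An exact permutation test of 2 libraries against 2 cannot give a p below 0.333, so none was made.

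As shares of the pool of all 6 genes per length, LHCB5 and LHCB6 held more, and the CP29 genes less, in the red-light groups than in WT dark. LHCB6 made up 26.1 ± 0.0532% of the pool in phyAB red, 25.6 ± 0.271% in phyB red, 26.1 ± 0.487% in WT red and 12.6 ± 0.337% in WT dark (SD, n = 2). LHCB5 made up 31.2 ± 0.102% in phyAB red, 35.2 ± 0.0115% in phyB red, 32.8 ± 0.656% in WT red and 23.2 ± 0.314% in WT dark. No library of a red-light group overlapped WT dark in either share. LHCB4.2 made up 20.9 ± 0.201% in phyAB red, 18.8 ± 0.148% in phyB red, 20.6 ± 0.0672% in WT red and 35.3 ± 0.0481% in WT dark. LHCB4.1 made up 20.3 ± 0.339% in phyAB red, 19.6 ± 0.143% in phyB red, 19.5 ± 0.296% in WT red and 26.4 ± 0.0784% in WT dark. LHCB4.3 made up 1.15 ± 0.0302% in phyAB red, 0.540 ± 0.0268% in phyB red, 0.607 ± 0.0155% in WT red and 2.14 ± 0.00551% in WT dark. LHCB7 made up 0.299 ± 0.0129% in phyAB red, 0.369 ± 0.00438% in phyB red, 0.392 ± 0.0445% in WT red and 0.338 ± 0.0480% in WT dark, with WT dark libraries that overlapped those of the other groups. The summed RPKM behind these shares was 1025 and 1037 in phyAB red, 2554 and 2557 in phyB red, 2086 and 2096 in WT red, and 528 and 517 in WT dark. The phyAB red pool was smaller than that of WT red, but its shares of LHCB6, LHCB5, LHCB4.1, LHCB4.2 and LHCB4.3 lay nearer to those of WT red than to those of WT dark, whereas its LHCB7 share lay nearer to that of WT dark.

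**Figure D3:**
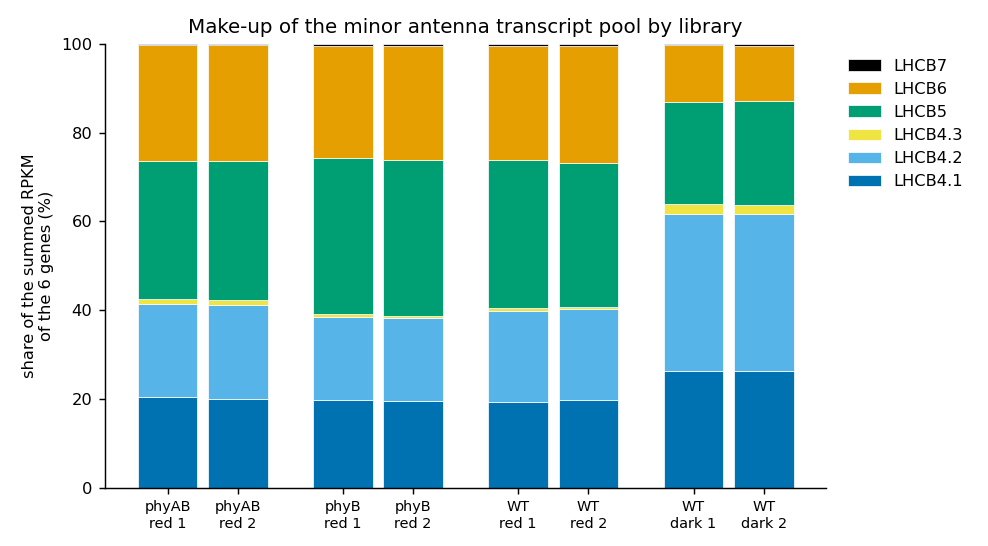
Share of each gene in the summed RPKM of the 6 minor antenna genes, in percent, stacked for each of the 8 libraries, with phyAB red at left, then phyB red, WT red and WT dark. LHCB6 takes 26.1% on average in WT red and 12.6% in WT dark, and LHCB4.2 takes 20.6% in WT red and 35.3% in WT dark.

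Neighbouring genes were looked at because the labels do not say whether reads keep their strand. The LHCB6 locus overlaps AT1G15810 at its 3′ end and the antisense noncoding gene AT1G05207, and the LHCB4.2 locus overlaps AT3G08943. AT1G15810 was at 14.9 to 16.0 RPKM in phyAB red, 11.6 to 12.2 in phyB red, 11.3 to 11.5 in WT red and 13.3 to 14.3 in WT dark. AT3G08943 was between 19.2 and 20.8 RPKM in all 8 libraries. Any part of reads from these neighbours in the LHCB6 and LHCB4.2 values was not tested. Reads of LHCB6 and of AT1G05207 could not be told apart without strand.

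Other genes of the antenna and its assembly were read from lists. The major LHCII genes (9 of 9) rose in WT red against WT dark with a median log2 of 4.82, from 1.87 for CAB1 (AT1G29930) to 6.69 for CAB2 (AT1G29920), and 9 of 9 fell in phyAB red against WT red (median -1.52). The photosystem I antenna genes (6 of 6) rose with a median of 2.54, from 1.84 for LHCA2 to 4.87 for LHCA1, and 6 of 6 fell in phyAB red (median -1.40). The 11 nuclear photosystem II subunit genes, with NPQ4 (AT1G44575, the quenching sensor PSBS), all rose (median 2.84, 1.86 for PSBO1 to 3.20 for PSBO2) and all fell in phyAB red (median -1.23). The minor antenna medians in the same comparisons were 1.92 and -1.07, beside 0.00 over all tested genes in both. The TMM scaling of the libraries by itself brings the median over all genes close to that value. Of all tested genes, 24.2% were called higher in WT red against WT dark and 22.8% lower in phyAB red against WT red. CAB genes of the LHCB1 type are near-identical copies whose reads the counting may split between them.

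For the neighbouring lists, the difference of each mutant in red light from WT dark was also read as a percent of the wild-type rise. No dark library of either mutant enters these shares, so they are not the mutants' own responses to light. In phyAB red the median was 26.5% over the 5 raised minor antenna genes (range 12.7% to 42.4%), 34.9% over the major LHCII genes (24.1% to 62.9%), 24.5% over the photosystem I antenna genes (14.4% to 40.6%) and 31.1% over the photosystem II subunits (22.6% to 44.3%). In phyB red the medians were 122% over the minor antenna, 142% over the major LHCII, 139% over the photosystem I antenna and 129% over the photosystem II subunit genes. In phyAB red the minor antenna range overlapped that of each other list, and differences between lists were not tested.

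Genes that help make and mount antenna proteins were more uneven. All 5 import and insertion genes rose in WT red against WT dark, from 0.10 log2 for ALB3, the insertase of the thylakoid, to 2.45 for CAO (AT2G47450), which encodes cpSRP43, the targeting factor of antenna proteins, and all 5 fell in phyAB red against WT red; 24.2% of all tested genes were called higher in the light comparison and 22.8% lower in the phyAB one. Of the 3 genes for chlorophyll b synthesis and breakdown, CH1 (AT1G44446), the chlorophyll b synthase, rose by 2.37 and NYC1, a chlorophyll b reductase, by 0.15, while NOL had 0.13 ± 0.15 and did not pass. STN7, the state transition kinase, rose by 1.74, and 3 of the 4 kinase and phosphatase genes rose, while the phosphatase gene TAP38 had 0.07 ± 0.07 and did not pass. Both GLK transcription factors, which are known to bind antenna gene promoters, rose, GPRI1 (GLK1) by 1.04 and GLK2 by 1.48, and both fell in phyAB red by 0.37 and 1.04. In phyB red against WT red neither passed, with 0.02 ± 0.12 for GPRI1 and 0.10 ± 0.05 for GLK2 (adjusted p = 0.944 and 0.141 by edgeR).

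**Figure D4:**
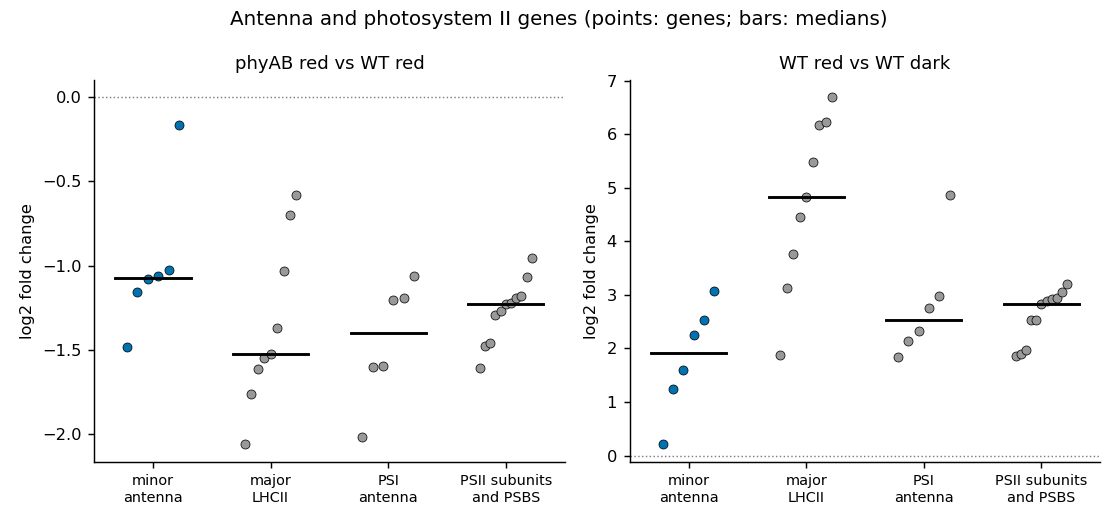
Log2 fold change of every gene of the minor antenna, major LHCII, photosystem I antenna and photosystem II subunit lists in phyAB red against WT red (left) and WT red against WT dark (right); each point is a gene, and the line marks the list median. The minor antenna median is -1.07 at left and 1.92 at right, and the major LHCII median is -1.52 and 4.82.

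The profile of each member over the 8 libraries was compared with 15459 genes of at least 5 CPM (reads scaled to the library total) by the root mean square difference of centred log2 values. Among members, LHCB4.1 and LHCB4.2 were closest (0.18), then LHCB5 and LHCB6 (0.24) and LHCB5 and LHCB7 (0.25); LHCB4.3 and LHCB6 were farthest (1.20). The nearest genes in the whole table were closer than any member, which a search over 15459 genes favours by its size. LHCB5 was nearest to PSBY (AT1G67740; 0.03), a photosystem II subunit gene, PSAL (AT4G12800; 0.05), a photosystem I subunit gene, and PTAC16 (AT3G46780; 0.06), a gene for a protein of the plastid chromosome. LHCB4.1 was nearest to PAP3 (AT1G14700; 0.04), a purple acid phosphatase gene, RABE1b (AT4G20360; 0.05), a gene for a plastid elongation factor, and AT5G08720 (0.05). LHCB4.2 was nearest to ECHID (AT1G60550; 0.05), a gene of phylloquinone synthesis, AT1G22430 (0.06) and PSAE-2 (AT2G20260; 0.06), a photosystem I subunit gene. LHCB6 was nearest to AT5G36790 (0.08), LQY1 (AT1G75690; 0.08), a gene for a photosystem II repair protein, and FAD8 (AT5G05580; 0.09), a plastid desaturase gene, and LHCB7 to AT5G38520 (0.08), AT1G71500 (0.09) and FAD5 (AT3G15850; 0.09). LHCB4.3, whose profile was nearly flat, was nearest to AT1G72160 (0.03), AT2G45810 (0.03) and LCR68 (AT2G02130; 0.04), also nearly flat. The libraries are shared by all of these profiles, and the distance is a description with no test.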

How the data were processed

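RNA sequencing of Arabidopsis seedlings was described per the labels as 8 libraries in 4 groups of 2. Per the file headers, the deposited tables hold for each gene model the reads (counts, not normalized) and the RPKM, which the authors scaled to the length of the model and the library total; dividing one by the other gave a constant length within 0.05 for 19927 of 19927 models checked. TAIR10 is the build in the submitters' processing notes; the aligner, counter, strandedness and treatment of multiply mapping reads were not given in the sources used here. Coordinates and promoters come from RefSeq's TAIR10.1 (26719 of 27416 models matched).

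Counts were fitted in edgeR 4.0.16 (R 4.3.3) with TMM scaling, filterByExpr with a minimum count of 10, one mean per group over all 8 libraries and quasi-likelihood F-tests of 6 comparisons, with Benjamini-Hochberg adjustment over 20716 genes at 0.05. The trended dispersion was floored at 1e-04, a choice made after seeing the data, because edgeR's deviance is approximate below it (1.48% of tested genes). Without the floor, SE in WT red against WT dark were 0.036 for LHCB5 and 0.042 for LHCB6, against 0.021 and 0.027 with it. They were 0.032 for LHCB4.1 and 0.030 for LHCB4.2, against 0.022 and 0.021. LHCB4.3 had 0.104 against 0.108, and LHCB7 0.212 against 0.207. For LHCB4.2 in phyB red against WT red, adjusted p by edgeR was 2.02e-04 without the floor and 1.70e-08 with it. Errors on log2 values are Wald SE. Alternatives used DESeq2 1.42.0 and limma 3.58.1, limma on log2(RPKM + 0.1). Replicates differed by more than sampling noise (chi-square per gene 1.34 to 1.47). The fit was tested on simulated data. Counting error alone limits genes with few reads.

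The genes were the 6 minor antenna genes, and every one is named in every comparison. Of each list, up to 2 genes with the highest and 2 with the lowest change in WT red against WT dark and in phyAB red against WT red could be named, plus the 3 genes nearest each member. Members and lists were chosen with earlier results of these data known.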

Additional observations from a re-analysis of the deposited data

How the results depend on the processing

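Of 576 values of the 6 genes under alternatives, 557 kept their direction and side of the threshold, 18 lost the threshold and 1 changed sign, LHCB4.3 in phyAB red against WT dark (-0.0046 without WT dark replicate 2, range -0.0046 to 0.062 over the libraries left out), which was not called either way. Against 1.5-fold in glmTreat, a setting added after seeing the data, calls over all genes were 2298 in WT red against WT dark, 385 in phyB red against WT red, 1649 in phyAB red against WT red, 2402 in phyAB red against phyB red, 2736 in phyB red against WT dark and 1743 in phyAB red against WT dark. Members called there were 0 in phyB red against WT red (LHCB4.1 0.25, LHCB4.2 0.11, LHCB5 0.34 and LHCB6 0.22, log2) and 2 in phyAB red against WT dark (LHCB4.1 0.57, LHCB4.2 0.19 and LHCB7 0.76 lost). That stricter test also lost LHCB4.3 in phyAB red against phyB red (-0.25) and phyB red against WT dark (0.29). DESeq2 called 3647 genes in phyB red against WT red, against 5722 in edgeR, and lost LHCB4.3 in the same 2 comparisons (-0.25 and 0.29); the cause was not tested.

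Leaving out 1 library at a time gave LHCB4.3 -0.29 to -0.19 in phyAB red against phyB red and 0.23 to 0.34 in phyB red against WT dark, and LHCB7 0.60 to 0.86 in phyAB red against WT dark. A group left with 1 library was assumed to vary like the others. Without length scaling the LHCB4.2 share of LHCB4.1 plus LHCB4.2 reads was 48.7% in phyAB red, 46.9% in phyB red, 49.3% in WT red and 55.2% in WT dark. With the replicate number as a block, calls were 9356 in phyAB red against WT red, 5689 in phyB red against WT red and 9704 in WT red against WT dark, and no member call changed; same-numbered libraries did not deviate together (correlations -0.0177 to 0.0110). Read depth limits LHCB7 (34 to 222 reads) and LHCB4.3 (218 to 355) most.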
